A study of Mus musculus with 170 samples.

Results

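Thymic fibroblasts are the connective tissue cells of the thymus. They were 1 of 23 mouse cell types whose poly-A RNA was counted in a survey of ageing, and they account for 8 of its 170 samples, chosen here by the cell type and age that the labels give. Of the 8, 4 came from old mice of 22 to 24 months and 4 from young mice of 2 months. Every library was made from the thymic tissue of 5 healthy animals on a C57/Bl6 background, pooled before the fibroblasts were isolated by fluorescence-activated sorting. The labels name no treatment other than age, and the sort gate and the sex of the animals were not given in the sources used here. Each library is therefore 1 pool of animals, and the p-values below measure the spread between pools. Groups set beside them were old and young thymic epithelial cells (5 pools each), old and young lymph node fibroblasts (3 pools each) and old and young muscle fibroblasts (3 pools each), from mice of the same 2 ages and background.

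The thymus is the organ in which T cells mature, and it shrinks with age as its epithelium thins and fat and connective tissue take its place. Its fibroblasts form the capsule, the septa and the sheaths of its vessels. They lay down the collagens and basement membranes on which the epithelium rests, and they secrete growth factors, chemokines and cytokines that reach epithelial cells and developing T cells. Interferons act on such stromal cells by way of STAT and IRF transcription factors, which induce large GTPases, antigen-presentation genes and chemokines.

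Library totals ran from 1392053 to 4751247 counts, and young pool 3 was the shallowest. Genes with a count numbered 29758, 31004, 23971 and 24880 in the old pools, against 22924, 24222, 20006 and 23096 in the young pools. The part of this difference in the rises of genes with few counts was not tested. The given marker Pdgfra, a growth factor receptor of mesenchymal cells, lay at 415 to 491 CPM in old pools and 404 to 525 CPM in young pools (CPM, counts per 1000000 of TMM-scaled library size). Decorin (Dcn), a collagen-binding proteoglycan, was among the 10 genes with the highest counts, at 18061 to 24689 CPM in old pools and 16430.4 to 20831 CPM in young pools. The 10 fibroblast markers summed to 27739 to 33345 CPM in old pools and 31203 to 44209.9 CPM in young pools, the 12 thymic epithelial markers to 221 to 310.2 CPM in old pools and 252 to 315 CPM in young pools and the 13 T cell markers to 38.8 to 78.6 CPM in old pools and 108 to 169 CPM in young pools. No marker of these 3 lists was at 0 in all 8 libraries. Young pool 1 stood apart by its Y-linked RNA: Ddx3y was at 0.216, 0.568, 0 and 1.02 CPM in the old pools, against 40.3, 0, 0 and 0.443 CPM in the young pools, and Eif2s3y at 0.431, 0.568, 0.552 and 1.53 CPM in the old pools, against 34.5, 1.15, 0.703 and 0 CPM in the young pools. Xist, which is made from the inactive X chromosome, was counted in every pool (163 to 288 CPM in old pools and 89.3 to 439.8 CPM in young pools) and was lowest in young pool 1. Calls that end without young pool 1 are named below with those that end without another pool, and without it the comparison of old with young called 117 higher and 55 lower genes. Along the first principal component of the 500 most variable genes, which held 41.4% of their variance, every old pool lay apart from every young pool.

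Of 12239 genes tested, 169 were higher in old thymic fibroblasts (1.38%) and 66 were lower (0.539%) at a Benjamini-Hochberg adjusted p under 0.05 in edgeR's quasi-likelihood test, the test used throughout. The median log2 fold change of all genes tested was 8.01e-05. Old and young pools did not overlap for 163 of the 169 higher genes and 64 of the 66 lower genes. Among all 12239 genes tested they did not overlap for 933. The calls and the overlap rest on the same pools, so the lack of overlap is not further support for a call. Single pools moved the counts of called genes. Without old pool 1 the test called 109 higher and 32 lower genes, without old pool 2 it called 92 and 44, without old pool 3 it called 114 and 34, and without young pool 2 it called 103 and 46. In every fit that left out 1 pool, 70 of the higher and 27 of the lower genes stayed past the threshold, and the genes given per pool below are mostly of this kind. A lower count in these bulk samples may stand for fewer cells of a kind or less RNA per cell, which cannot be told apart. The gene lists below were chosen with earlier results of these data known, so their counts are not independent of the data.

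**Figure D1:**
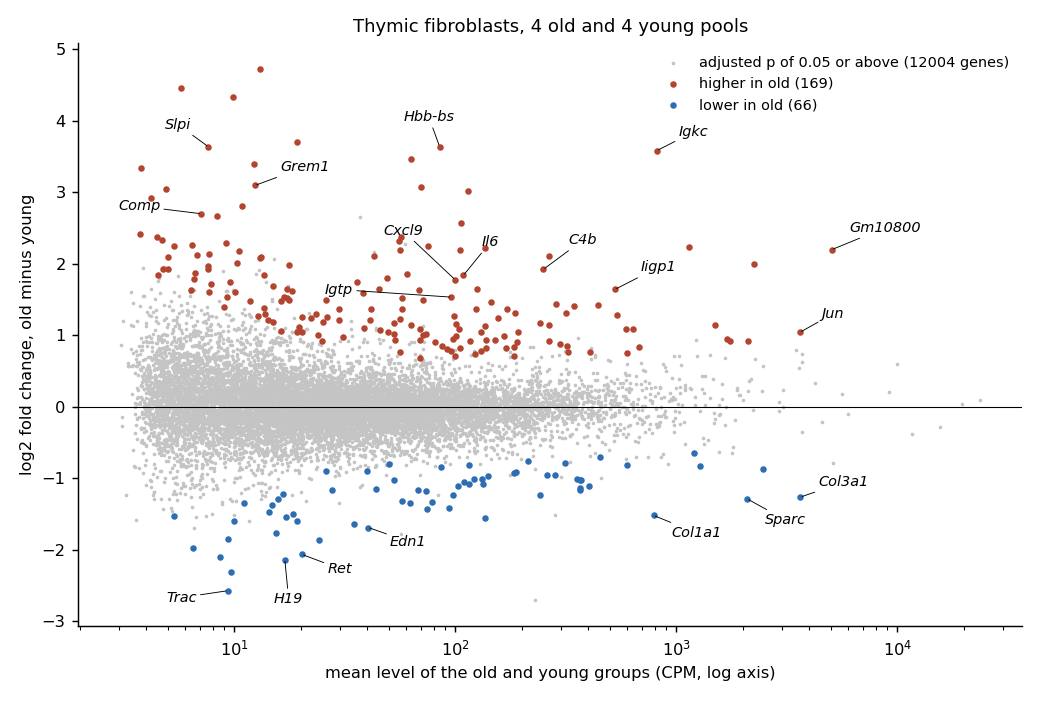
Each point is 1 of 12239 genes tested in thymic fibroblasts. The horizontal axis is the mean of the old and young group levels in CPM (log axis), and the vertical axis is the log2 fold change, old minus young. The 169 genes higher in old (red) include Igkc, Hbb-bs, C4b, Il6 and Iigp1, and the 66 lower genes (blue) include Col3a1, Sparc, Col1a1, Ret and Trac.

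Most of the fibrillar collagens tested, the rope-like proteins that give connective tissue its tensile strength, were lower in old thymic fibroblasts. Of 9 listed genes 6 were counted well enough to test, all 6 had a negative log2 fold change, and 5 passed the threshold. Their median log2 fold change was -1.04. Col3a1, which encodes the chain of type III collagen, was counted at 2786, 1859, 1766 and 2149 CPM in the old pools, against 7938, 4137, 3823 and 4674 CPM in the young pools. Every young pool lay above every old pool, with young pool 1 the highest. The log2 fold change of -1.26 (SE 0.23, adjusted p = 0.00781) held without any one pool. Col5a2, a chain of the type V collagen that starts new fibrils, was at 262, 241, 269.7 and 248 CPM in the old pools, against 494, 519, 632 and 568 CPM in the young pools. All 4 young pools lay well above all 4 old pools, with a log2 fold change of -1.12 (SE 0.15, adjusted p = 0.00120).

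Col1a1, the alpha1 chain of type I collagen and the other given marker of these cells, was at 454, 396, 303 and 477 CPM in the old pools, against 2115, 528, 1486 and 553 CPM in the young pools. Young pools 1 and 3 were much higher than young pools 2 and 4, and pools 2 and 4 lay only a little above the highest old pool. The log2 fold change of -1.52 (SE 0.35, adjusted p = 0.0327) passed with all 8 pools. The calls of Col1a1, Col5a1 and Col5a3 each ended without one or another of old pools 1, 2, 3 or 4 or young pools 1, 2 or 3 (highest adjusted p 0.121). Col1a2, the partner chain of type I collagen, lay at 2577 to 5107 CPM in old pools and 5200.0 to 9059 CPM in young pools and had a log2 fold change of -0.79 (adjusted p = 0.0976). Across all collagen genes in the table, a list drawn up with their values known, 12 of 30 tested were lower, 2 were higher and the median log2 fold change was -0.65.

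Some basement membrane genes, which code for the thin sheets under epithelium and around vessels, were lower too. Of 18 basement membrane genes tested, 6 were lower and 0 higher, with a median log2 fold change of -0.65. Col4a2, a chain of the sheet-forming type IV collagen, was at 119, 139.9, 131 and 189 CPM in the old pools, against 373, 322, 347 and 314 CPM in the young pools. Its log2 fold change of -1.23 (SE 0.17, adjusted p = 0.00145) held without any one pool. Col4a1, its partner, lies head to head with it and overlaps it in the annotation. Col4a1 was at 387 to 508 CPM in old pools and 586 to 903 CPM in young pools, a log2 fold change of -0.81 (adjusted p = 0.0209). Col18a1, a basement membrane collagen whose end fragment is endostatin, was at 35.4, 42.6, 36.4 and 46.9 CPM in the old pools, against 136, 88.6, 108 and 99.6 CPM in the young pools. No old pool reached the level of any young pool, and the log2 fold change of -1.43 (SE 0.19, adjusted p = 0.000842) held without any one pool. Sparc, a secreted glycoprotein that binds collagen, was at 1345, 1235, 1104 and 1184 CPM in the old pools, against 4057, 2097, 3235 and 2519 CPM in the young pools, with a log2 fold change of -1.29 (SE 0.20, adjusted p = 0.00312). Col15a1, a relative of Col18a1, had a log2 fold change of -1.03 (adjusted p = 0.0250), and Lamc1, the gamma1 chain found in most laminins, one of -1.01 (adjusted p = 0.0249). The calls of Col4a1, Col15a1 and Lamc1 ended without one or another of old pools 1, 3 or 4 or young pools 2 or 3 (highest adjusted p 0.0989). Nid1 and Lamb1, which code for further basement membrane proteins, did not pass, with log2 fold changes of -0.74 (adjusted p = 0.0834) and -0.49 (adjusted p = 0.110).

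Among 10 microfibrillar and fibril-associated collagens tested, Col6a1 and Col6a3 were lower and Col8a1 was higher. Col6a3, a chain of the beaded filaments around cells, lay at 163 to 218 CPM in old pools and 315 to 476 CPM in young pools, a log2 fold change of -0.96 (adjusted p = 0.00749). Col6a1 lay at 884 to 969 CPM in old pools and 1376 to 1553 CPM in young pools, a log2 fold change of -0.65 (adjusted p = 0.0293), and its call ended without old pools 1, 2, 3 or 4 or young pools 1, 2 or 4 (highest adjusted p 0.106). Col8a1, a short-chain collagen of vessel walls and other sheet-like matrices, went against the rest. It was at 37.5, 45.4, 40.8 and 47.5 CPM in the old pools, against 18.6, 14.2, 15.5 and 17.7 CPM in the young pools. All old pools exceeded 37 CPM and all young pools stayed under 19 CPM, for a log2 fold change of 1.36 (SE 0.20, adjusted p = 0.00230).

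**Figure D2:**
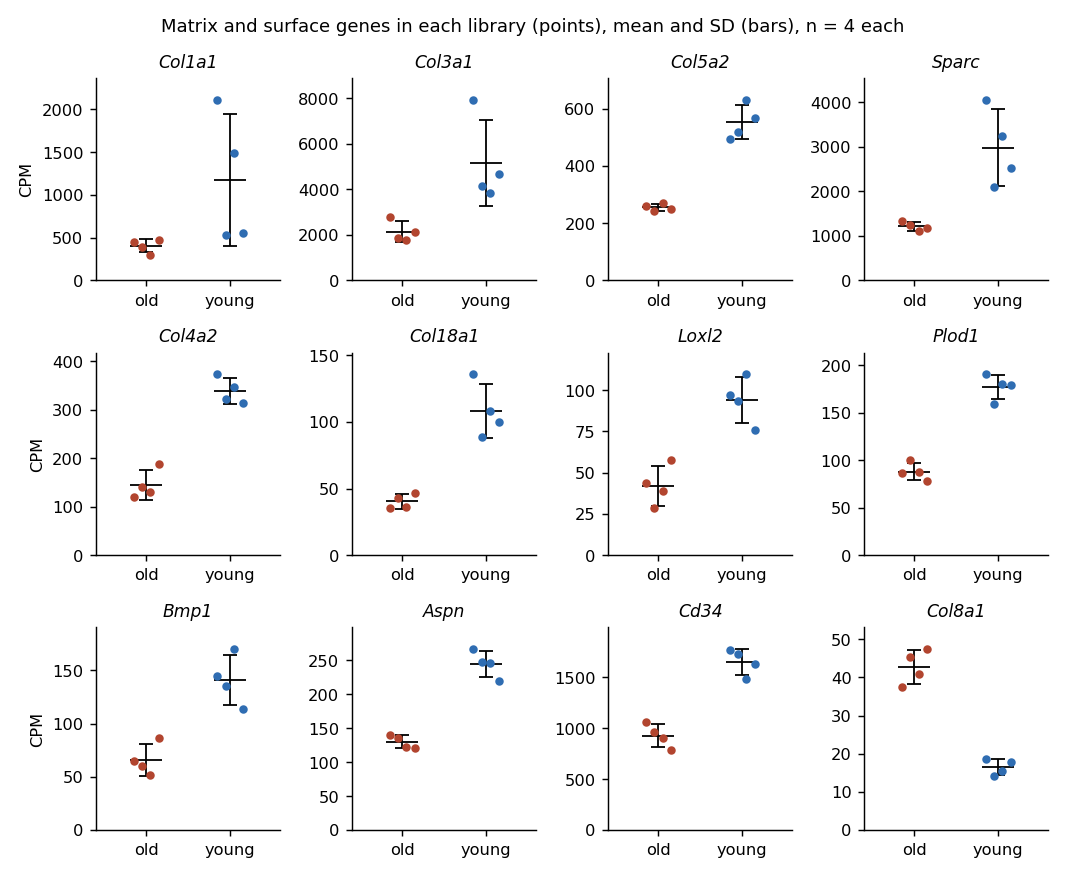
CPM of 12 matrix and surface genes in each of 4 old (red, left) and 4 young (blue, right) pools of thymic fibroblasts, with the group mean and SD. For Col3a1 the old pools lie between 1766 and 2786 CPM and the young pools lie at 3823 CPM or above, while Col8a1 in the last panel is higher in old.

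Of 17 tested enzymes and chaperones that finish and cross-link collagen, 4 were lower and 0 higher. All 17 had a negative log2 fold change, with a median of -0.35. Plod1, a lysyl hydroxylase that prepares collagen for cross-linking, was at 86.5, 100.2, 87.7 and 78.1 CPM in the old pools, against 191, 159.5, 181 and 179 CPM in the young pools. The groups did not overlap, with a log2 fold change of -1.01 (SE 0.16, adjusted p = 0.00312). Loxl2, a cross-linking oxidase, was at 28.4 to 57.7 CPM in old pools and 75.7 to 109.6 CPM in young pools, a log2 fold change of -1.16 (adjusted p = 0.00781). Bmp1, the protease that trims the carboxyl end of procollagens, was at 51.3 to 86.2 CPM in old pools and 113 to 170.0 CPM in young pools, a log2 fold change of -1.10 (adjusted p = 0.00563). Adamts2, which trims the amino end, had a log2 fold change of -1.08 (adjusted p = 0.0308) and lost its call without old pools 1, 2, 3 or 4 or young pools 1 or 3 (highest adjusted p 0.126). The chaperone Serpinh1, which folds procollagen, lay at 1117 to 1318 CPM in old pools and 1588 to 2624 CPM in young pools and did not pass (-0.63, adjusted p = 0.110).

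Other matrix classes were mixed. Of 18 elastic fibre genes tested, Fbn1 (fibrillin), Eln (elastin) and Fbln2 (a fibulin) were lower, with log2 fold changes of -1.14 (adjusted p = 0.0137), -1.08 (adjusted p = 0.0131) and -0.78 (adjusted p = 0.0434). Fbln7, another fibulin, was higher, with one of 1.23 (adjusted p = 0.0176). Each of those 4 calls ended without some pool, among them old pools 1, 2, 3 or 4 or young pools 1, 2 or 3 (highest adjusted p 0.132). Small leucine-rich proteoglycans showed 1 fall in 10 tested, that of Aspn, asporin, which binds collagen and TGF-beta, at 140.4, 136, 122 and 121 CPM in the old pools, against 267, 248, 246 and 219.6 CPM in the young pools and with a log2 fold change of -0.91 (SE 0.15, adjusted p = 0.00450). Dcn, Bgn and Lum did not pass, and the list's median log2 fold change was 0.06. Among 25 matrix proteases and inhibitors, the gelatinase Mmp9 was lower (42.7, 63.0, 36.4 and 37.8 CPM in the old pools, against 104, 83.2, 119 and 105 CPM in the young pools), with a log2 fold change of -1.18 (SE 0.20, adjusted p = 0.00563). Mmp3, a stromelysin, was higher at 882, 812, 898 and 885 CPM in the old pools, against 434, 436, 592 and 495 CPM in the young pools. Its log2 fold change of 0.83 (SE 0.16, adjusted p = 0.00992) was lost only without young pool 2 (highest adjusted p 0.0551). Mmp2, Serpine2 and Timp3, a gelatinase and inhibitors of serine and metalloproteases, had log2 fold changes of -0.71 (adjusted p = 0.0380), -0.87 (adjusted p = 0.0293) and 0.78 (adjusted p = 0.0265). Their calls ended without one or another of old pools 1, 2, 3 or 4 or young pools 1, 2 or 4 (highest adjusted p 0.124).

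Of 21 matricellular and adhesive glycoprotein genes tested, Spp1, Ccn2 and Comp were higher in old cells and Vcan was lower, with a median log2 fold change of 0.05. Of 7 osteochondrogenic genes tested, Cilp was higher and none was lower, with a median of 0.37. Comp, a cartilage matrix protein that organises collagen fibrils, was low in all libraries but higher in every old pool, at 8.41, 11.1, 14.9 and 14.3 CPM in the old pools, against 0.677, 1.53, 3.51 and 2.21 CPM in the young pools. The log2 fold change of 2.70 (SE 0.44, adjusted p = 0.00444) held without any one pool. Cilp, another cartilage matrix gene, was at 209, 225, 296 and 253 CPM in the old pools, against 58.9, 64.8, 113 and 147 CPM in the young pools, with a log2 fold change of 1.36 (SE 0.25, adjusted p = 0.00781). Tgfbi, an adhesive protein induced by TGF-beta, was at 200.3, 217, 273 and 188 CPM in the old pools, against 113, 79.8, 82.2 and 95.2 CPM in the young pools, with a log2 fold change of 1.24 (SE 0.18, adjusted p = 0.00148). Old and young pools were apart for all 3 genes. Ccn2, a matricellular protein also called connective tissue growth factor, lay at 107 to 170.3 CPM in old pools and 48.7 to 78.8 CPM in young pools (0.95, adjusted p = 0.0190) and lost its call without old pool 2 or young pools 1 or 2 (highest adjusted p 0.0993). Spp1 (osteopontin) was at 37.7, 253, 67.3 and 26.0 CPM in the old pools, against 32.1, 15.3, 9.84 and 14.6 CPM in the young pools. Old pool 2 was far above the rest, the groups overlapped, and its log2 fold change of 2.38 (SE 0.57, adjusted p = 0.0382) was lost without old pools 2 or 3 or young pools 2, 3 or 4 (highest adjusted p 0.181). Versican (Vcan), a large proteoglycan, was lower, with a log2 fold change of -1.06 (adjusted p = 0.0244) that was lost without old pools 1, 3 or 4 or young pool 2 (highest adjusted p 0.0820).

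Of 14 markers of capsular and adventitial fibroblasts tested, 2 were lower and 0 higher. In all, 12 had a negative log2 fold change, with a median of -0.62. Cd34, a sialomucin of progenitors and adventitial fibroblasts, was at 1056, 958, 899 and 785 CPM in the old pools, against 1763, 1725, 1478 and 1633 CPM in the young pools. Its groups did not overlap, with a log2 fold change of -0.84 (SE 0.16, adjusted p = 0.00984). Clec3b (tetranectin) had a log2 fold change of -0.95 (adjusted p = 0.0334) and lost its call without old pools 1, 2 or 3 or young pools 1 or 2 (highest adjusted p 0.123). Pi16, a marker of adventitial fibroblasts, lay at 165 to 408 CPM in old pools and 344 to 893 CPM in young pools and did not pass (adjusted p = 0.0960). None of 13 myofibroblast and contractile genes passed, in either direction, and their median log2 fold change was 0.25. Of 22 TGF-beta pathway genes, Tgfbi was higher and Tgfb2, a ligand, was lower at -0.84 (adjusted p = 0.0325) on the log2 scale, a call that ended without old pools 1, 2, 3 or 4 or young pools 1 or 3 (highest adjusted p 0.118).

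Several signalling and membrane genes outside the matrix lists were lower, most of them named for the size of their change. Ret, the receptor tyrosine kinase for ligands of the GDNF family, was at 6.25, 10.5, 5.52 and 8.67 CPM in the old pools, against 33.5, 33.7, 31.6 and 32.3 CPM in the young pools. The young pools lay between 31.6 and 33.7 CPM, far above every old pool, and the log2 fold change of -2.07 (SE 0.25, adjusted p = 0.000574) held without any one pool. Edn1, the vasoconstrictor peptide endothelin, was at 18.8, 14.8, 17.7 and 26.0 CPM in the old pools, against 88.3, 63.6, 65.3 and 28.8 CPM in the young pools, with a log2 fold change of -1.69 (SE 0.29, adjusted p = 0.00563). Young pool 4 was the lowest young pool for Edn1 and still above every old pool. H19, an imprinted RNA of growing tissues, was at 6.47, 5.68, 2.21 and 10.7 CPM in the old pools, against 21.7, 47.9, 20.4 and 20.4 CPM in the young pools. Young pool 2 stood above the other young pools, and the log2 fold change of -2.14 (SE 0.38, adjusted p = 0.00693) held without it. Itm2a, a membrane protein of developing mesenchyme and T cells, was at 86.9, 62.7, 62.9 and 62.8 CPM in the old pools, against 295, 217, 138 and 163 CPM in the young pools, with a log2 fold change of -1.56 (SE 0.22, adjusted p = 0.00148). Pi15, a secreted protein of the CAP family, lay at 40.8 to 57.1 CPM in old pools and 88.3 to 205 CPM in young pools, a log2 fold change of -1.42 (adjusted p = 0.00496). Tenm4, a teneurin adhesion protein, lay at 5.52 to 12.2 CPM in old pools and 16.8 to 43.0 CPM in young pools (-1.50, adjusted p = 0.0190) and lost its call without old pools 1 or 3 or young pools 1 or 2 (highest adjusted p 0.0820).

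Part of the interferon-inducible programme was higher in old thymic fibroblasts. Of 43 listed genes 40 were tested, 9 were higher, 0 were lower and 39 had a positive log2 fold change, with a median of 0.40. Igtp, an immunity-related GTPase that guards against parasites inside cells, was at 124, 150.1, 153 and 145 CPM in the old pools, against 46.7, 51.0, 47.1 and 52.3 CPM in the young pools. The young pools lay within 6 CPM of each other and far below the lowest old pool, with a log2 fold change of 1.53 (SE 0.16, adjusted p = 0.000509). Iigp1, another GTPase of the family, was at 686, 897, 766 and 854 CPM in the old pools, against 168, 277, 299 and 283 CPM in the young pools, with a log2 fold change of 1.64 (SE 0.19, adjusted p = 0.000552). Irgm1, which regulates the other family members, was at 118, 160.1, 143 and 140.3 CPM in the old pools, against 44.0, 64.0, 48.5 and 75.3 CPM in the young pools, with a log2 fold change of 1.27 (SE 0.19, adjusted p = 0.00258). Old pools were above young pools for all 3.

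All 8 immunity-related GTPase genes listed (Igtp, Irgm1, Irgm2, Iigp1, Ifi47, Tgtp1, Tgtp2 and Gm12250) were higher. This list was drawn up with their values known and may leave out other members of the family. Of 8 guanylate-binding proteins tested, another family of interferon-induced GTPases, 5 were higher. Gbp2 was at 164, 202, 213 and 170.4 CPM in the old pools, against 83.6, 92.0, 61.1 and 103 CPM in the young pools, with a log2 fold change of 1.13 (SE 0.18, adjusted p = 0.00394). Gbp3 and Gbp4 had log2 fold changes of 1.01 (adjusted p = 0.00573) and 1.50 (adjusted p = 0.00737), and all of Igtp, Iigp1, Irgm1, Gbp2, Gbp3 and Gbp4 passed without any one pool. Gbp6 and Irgm2 had log2 fold changes of 1.30 (adjusted p = 0.0265) and 1.08 (adjusted p = 0.0255), and their calls ended without one or another of old pools 1, 2, 3 or 4 or young pools 1, 2, 3 or 4 (highest adjusted p 0.105). Irgm2 overlaps Igtp in the annotation. Irf1, a transcription factor that interferon gamma induces, was at 191, 301, 199 and 195 CPM in the old pools, against 107, 120.0, 115 and 104 CPM in the young pools. Old pool 2 was far above the other old pools, and the log2 fold change of 0.99 (SE 0.18, adjusted p = 0.00700) held without it. Named after their values were seen, Ifi47, Tgtp2, Gm12250 and Gbp8 of the same GTPase families were higher, with log2 fold changes of 1.64 (adjusted p = 0.000574), 1.53 (adjusted p = 0.000729), 1.80 (adjusted p = 0.000842) and 1.21 (adjusted p = 0.00445). Socs1, the inhibitor that interferons induce against their own signal, was higher at 103 to 191 CPM in old pools and 49.7 to 82.2 CPM in young pools (1.16, adjusted p = 0.00775). Members of both families are close copies of each other, and how the authors' counting split reads between them was not given in the sources used here. Ifng, the gene for interferon gamma itself, had no count in 7 of the 8 libraries and 0.443 CPM in young pool 4. None of the receptor genes Ifngr1, Ifngr2, Ifnar1 and Ifnar2 passed, with log2 fold changes between -0.37 and 0.32.

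Promoter sequences of some of the genes that were higher in old cells are shown next, so that matches to known motifs can be read directly from them. They are the 250 bases before the RefSeq start (build GRCm38.p6), on the strand of the gene, 5′ to 3′. Capitals mark any match, on either strand, to 4 motifs: GAAANNGAAA (the core of the interferon response element), TTCNNNGAA (the gamma-activated site), GGGNNTTTCC (a kappa B site) and TGANTCA (an AP-1 site).
Igtp promoter (chr11:58199306-58199555, plus strand): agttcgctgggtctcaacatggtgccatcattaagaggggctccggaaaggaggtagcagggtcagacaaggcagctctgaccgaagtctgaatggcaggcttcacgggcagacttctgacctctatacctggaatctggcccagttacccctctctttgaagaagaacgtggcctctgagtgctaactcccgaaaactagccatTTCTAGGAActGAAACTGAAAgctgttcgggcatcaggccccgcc
Gbp2 promoter (chr3:142620413-142620662, plus strand): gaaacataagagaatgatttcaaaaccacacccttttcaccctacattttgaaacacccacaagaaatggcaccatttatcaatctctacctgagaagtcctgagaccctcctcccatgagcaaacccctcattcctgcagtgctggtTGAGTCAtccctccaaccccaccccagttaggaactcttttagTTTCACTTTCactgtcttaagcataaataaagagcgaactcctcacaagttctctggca
Cxcl10 promoter (chr5:92348890-92349139, minus strand): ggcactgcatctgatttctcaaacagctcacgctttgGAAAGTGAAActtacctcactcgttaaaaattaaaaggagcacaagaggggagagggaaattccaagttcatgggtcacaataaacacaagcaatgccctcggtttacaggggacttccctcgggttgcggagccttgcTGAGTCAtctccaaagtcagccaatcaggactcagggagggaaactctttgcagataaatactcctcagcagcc
Cxcl9 promoter (chr5:92328080-92328329, minus strand): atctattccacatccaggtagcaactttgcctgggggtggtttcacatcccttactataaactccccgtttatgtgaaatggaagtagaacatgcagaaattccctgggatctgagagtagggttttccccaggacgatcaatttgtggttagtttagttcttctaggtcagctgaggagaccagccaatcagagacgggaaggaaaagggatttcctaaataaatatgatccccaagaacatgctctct
Il6 promoter (chr5:30012864-30013113, plus strand): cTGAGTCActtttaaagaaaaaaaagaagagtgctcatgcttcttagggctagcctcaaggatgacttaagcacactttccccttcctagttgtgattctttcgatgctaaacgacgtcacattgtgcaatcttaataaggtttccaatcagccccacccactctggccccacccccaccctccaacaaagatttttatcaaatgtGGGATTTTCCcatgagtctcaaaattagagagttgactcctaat
Cxcl1 promoter (chr5:90890995-90891244, plus strand): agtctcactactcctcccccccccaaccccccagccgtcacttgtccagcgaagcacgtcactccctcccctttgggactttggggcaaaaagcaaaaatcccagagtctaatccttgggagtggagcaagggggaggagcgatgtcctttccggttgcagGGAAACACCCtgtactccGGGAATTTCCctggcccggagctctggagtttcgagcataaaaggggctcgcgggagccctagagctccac

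Igtp carried the interferon response core 25 to 34 bases before its start and a gamma-activated site just upstream of it. Gbp2 carried the core 50 to 59 bases upstream and Cxcl10 at 204 to 213 bases, each with an AP-1 site. Il6 and Cxcl1 held kappa B sites, the second of the pair in Cxcl1 at 62 to 71 bases. Cxcl9 held none of these letters in this window. None of the marked matches overlapped another. Of the 9 interferon-stimulated genes that passed, 6 had an entry in the promoter table and 5 of those 6 (Gbp2, Gbp3, Igtp, Irgm1 and Irgm2) held the interferon response core, the exception being Irf1. Counted by gene, with a match in any of its entries, the core was present in 20 of 115 genes higher in old cells (17.4%). It was present in 3 of 43 lower genes (6.98%) and in 286 of 8896 genes tested that had an entry (3.21%). Among the 20 were Gbp2, Gbp3, Igtp, Irgm1, Irgm2, Tgtp1, Tgtp2 and Gm12250, of families whose members are close copies. Counted by entry, all 32851 promoters of the table held the core in 2.98%, the gamma-activated site in 7.02%, the kappa B site in 1.41% and the AP-1 site in 6.75%. The same 115 genes held the gamma-activated site in 11.3%, the AP-1 site in 11.3% and the kappa B site in 4.35%. These are matches of letters and were not tested as binding sites.

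Several chemokines of inflamed stroma were higher. Of 20 chemokines tested, 5 were higher, 1 was lower and the median log2 fold change was 0.48. Cxcl9, a ligand of the receptor that draws activated T cells, was at 108, 201, 164 and 144 CPM in the old pools, against 35.2, 37.6, 53.4 and 55.4 CPM in the young pools. No young pool exceeded 56 CPM and no old pool fell under 107 CPM, with a log2 fold change of 1.78 (SE 0.22, adjusted p = 0.000604). Cxcl10, a second ligand of that receptor, was at 51.1, 94.2, 43.0 and 39.8 CPM in the old pools, against 17.6, 17.3, 22.5 and 19.9 CPM in the young pools, with a log2 fold change of 1.59 (SE 0.27, adjusted p = 0.00496). Cxcl1, which draws neutrophils, was at 403, 689, 385 and 326 CPM in the old pools, against 231, 198, 167 and 131 CPM in the young pools, with a log2 fold change of 1.31 (SE 0.23, adjusted p = 0.00690). Old pool 2 was the highest old pool for each of these 3, and old and young pools did not overlap. Cx3cl1 (fractalkine) had a log2 fold change of 0.74 (adjusted p = 0.0418) and lost its call without old pools 1, 2, 3 or 4 or young pools 1, 2 or 4 (highest adjusted p 0.153). The monocyte attractant Ccl2 lay at 341 to 749 CPM in old pools and 162 to 309.5 CPM in young pools and missed the threshold (adjusted p = 0.0609).

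Il6, the cytokine that drives the acute-phase response, was at 165, 305, 115 and 93.9 CPM in the old pools, against 33.5, 67.9, 50.6 and 39.4 CPM in the young pools. Again old pool 2 was highest, and the log2 fold change of 1.84 (SE 0.32, adjusted p = 0.00563) held without it. Slpi, a secreted protease inhibitor of mucosal surfaces, was at 5.18, 24.1, 17.1 and 10.2 CPM in the old pools, against 0.677, 1.92, 1.41 and 0.443 CPM in the young pools, with a log2 fold change of 3.64 (SE 0.58, adjusted p = 0.00378). The other 15 cytokine and acute-phase genes tested did not pass. Of 17 complement genes, C4b and C7 were higher. C4b, a component of the classical pathway, was at 369.8, 349.9, 328 and 537 CPM in the old pools, against 146, 85.9, 107 and 78.4 CPM in the young pools, with a log2 fold change of 1.92 (SE 0.22, adjusted p = 0.000552). C7, of the membrane attack complex, lay at 61.7 to 169 CPM in old pools and 18.6 to 61.2 CPM in young pools (1.63, adjusted p = 0.0265) and lost its call without old pools 1 or 2 or young pools 2, 3 or 4 (highest adjusted p 0.123). C3, the central complement component, had a log2 fold change of 0.17 (adjusted p = 0.802). Outside the list, Serpina3f, a serine protease inhibitor, lay at 14.7 to 27.8 CPM in old pools and 2.03 to 7.09 CPM in young pools, a log2 fold change of 2.08 (adjusted p = 0.00573). Clu, the extracellular chaperone clusterin, was named after its values were seen and lay at 187 to 342 CPM in old pools and 78.2 to 150.1 CPM in young pools, a log2 fold change of 1.32 (adjusted p = 0.00452).

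**Figure D3:**
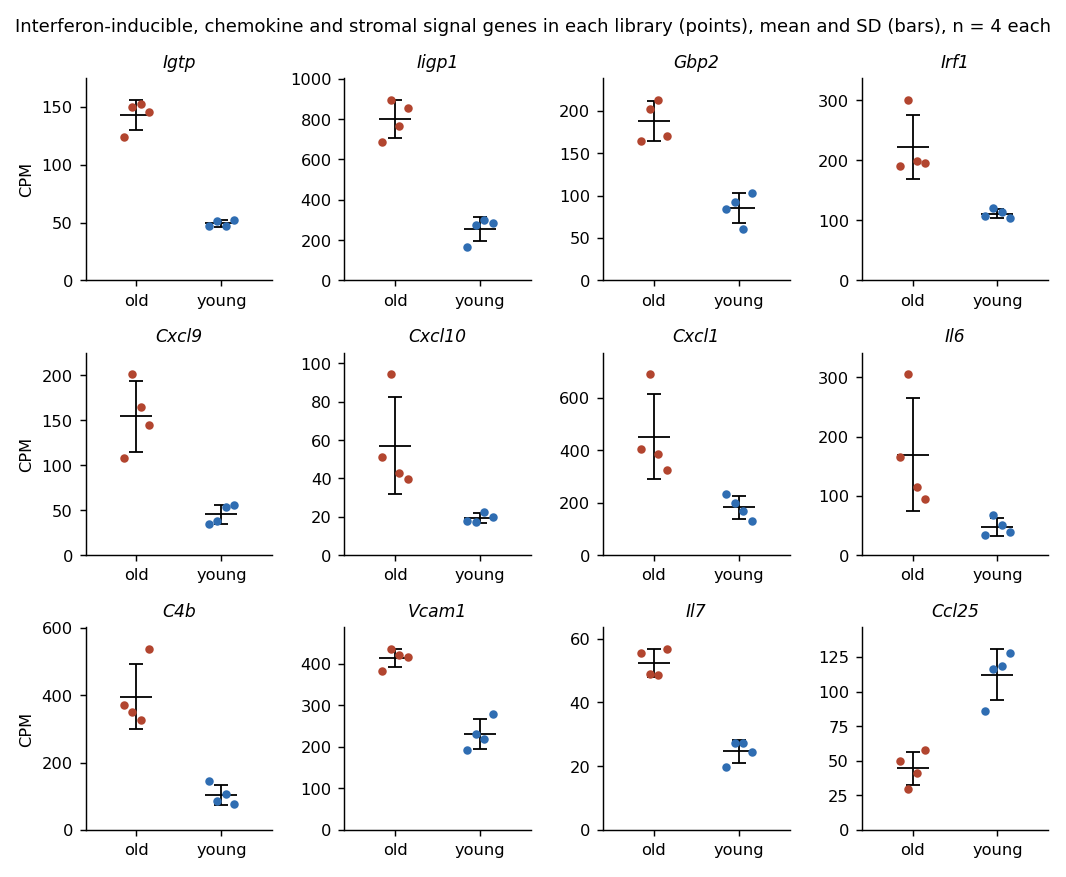
CPM of 12 interferon-inducible, chemokine and stromal signal genes in each of 4 old (red, left) and 4 young (blue, right) pools, with the group mean and SD. Igtp lies between 124 and 153 CPM in the old pools and between 46.7 and 52.3 CPM in the young pools, and Ccl25 is the one gene of the 12 that is lower in old.

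Of 20 genes of class I antigen presentation tested, 2 were higher and 0 lower. In all, 18 had a positive log2 fold change, with a median of 0.52. Psmb9, a subunit of the immunoproteasome, lay at 124 to 184 CPM in old pools and 66.7 to 95.5 CPM in young pools (0.92, adjusted p = 0.0158), and H2-Q6 had a log2 fold change of 0.93 (adjusted p = 0.0487). The heavy chains H2-K1 and H2-D1 and the light chain B2m were at 0.67, 0.62 and 0.60 on the log2 scale, with adjusted p of 0.0564, 0.0856 and 0.117. H2 class I genes are near copies, so reads may be shared between them. Of 9 class II genes, H2-Ab1, a chain of the class II molecule, was at 334, 403, 456 and 439 CPM in the old pools, against 237, 259, 202 and 259.5 CPM in the young pools, with a log2 fold change of 0.77 (SE 0.16, adjusted p = 0.0197), and H2-DMa, which loads peptide, had a log2 fold change of 1.26 (adjusted p = 0.0239). The 4 calls of Psmb9, H2-Q6, H2-Ab1 and H2-DMa ended without one or another of old pools 1, 2, 3 or 4 or young pools 1, 2 or 3 (highest adjusted p 0.151). Class II genes are also those of epithelial and dendritic cells. Summed dendritic cell markers were 48.1 to 56.1 CPM in old pools and 26.8 to 51.4 CPM in young pools, and summed macrophage markers were 67.3 to 113 CPM in old pools and 52.7 to 149.9 CPM in young pools. Their part in the class II result was not tested.

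Factors through which stroma keeps lymphocytes also moved. Il7, the survival cytokine of developing T cells, was at 55.6, 48.8, 48.5 and 56.6 CPM in the old pools, against 19.6, 27.2, 27.4 and 24.4 CPM in the young pools. Every old pool lay above every young pool, with a log2 fold change of 1.10 (SE 0.19, adjusted p = 0.00621). Vcam1, an adhesion molecule for lymphocytes, was at 382, 434, 420.3 and 416 CPM in the old pools, against 192, 230.4, 219 and 278 CPM in the young pools, with a log2 fold change of 0.85 (SE 0.16, adjusted p = 0.00916). Of 15 lymphotoxin and lymphoid stroma genes tested, Vcam1, Tnfsf13b, Cxcl13 and Ch25h were higher and 0 were lower. Tnfsf13b, the B cell survival factor BAFF, lay at 99.3 to 111 CPM in old pools and 41.5 to 68.3 CPM in young pools, a log2 fold change of 0.91 (adjusted p = 0.0158). Ch25h, an enzyme that makes a sterol signal for lymphocytes, had one of 1.53 (adjusted p = 0.0180). Cxcl13, which draws B cells, overlapped between the groups at 579, 239, 193 and 661 CPM in the old pools, against 238, 108, 166 and 105 CPM in the young pools (adjusted p = 0.0446). The calls of Tnfsf13b, Ch25h and Cxcl13 ended without one or another of old pools 1, 2, 3 or 4 or young pools 1, 2, 3 or 4 (highest adjusted p 0.167).

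Ccl25, the chemokine that calls T cell precursors into the thymus and is known mainly from its epithelium, was at 49.6, 29.8, 41.4 and 57.7 CPM in the old pools, against 85.6, 117, 119 and 128 CPM in the young pools. All old pools were below all young pools, with a log2 fold change of -1.33 (SE 0.21, adjusted p = 0.00378). Thymic epithelial markers did not fall with it as a list: 0 of 9 tested passed and their median log2 fold change was 0.04. Among them Krt5, Krt14 and Epcam had log2 fold changes of 0.21, 0.30 and 0.14, while the cortical epithelial genes Prss16 and Psmb11 were at -0.95 and -1.15 (adjusted p = 0.0907 and 0.175). How much of the Ccl25 count comes from epithelial RNA was not tested. Among 24 growth factors listed for thymic epithelium and stroma, Vegfc (a lymphatic growth factor) was higher beside Il7, and Angptl1 was lower. Vegfc had a log2 fold change of 1.05 (adjusted p = 0.0314) and Angptl1 of -1.15 (adjusted p = 0.0265), calls that ended without one or another of old pools 1, 2, 3 or 4 or young pools 1, 2 or 3 (highest adjusted p 0.124). Fgf7, the keratinocyte growth factor that thymic mesenchyme makes, did not pass at 39.2 to 72.5 CPM in old pools and 38.6 to 77.1 CPM in young pools (0.02, adjusted p = 0.991).

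Of 16 genes of the bone morphogenetic protein pathway tested, Grem1, Id2 and Id3 were higher, and Bmp1, the procollagen protease described above, was lower. Grem1, a secreted antagonist of these proteins, was at 12.3, 22.1, 24.3 and 30.1 CPM in the old pools, against 2.71, 3.07, 4.22 and 0.443 CPM in the young pools. The lowest old pool was far above the highest young pool, with a log2 fold change of 3.10 (SE 0.44, adjusted p = 0.00145). Id2, a transcriptional regulator that these proteins induce, was at 387, 437, 396 and 325 CPM in the old pools, against 223, 217, 197 and 205 CPM in the young pools, with a log2 fold change of 0.87 (SE 0.15, adjusted p = 0.00630). Id3, its relative, lay at 619.9 to 954 CPM in old pools and 343 to 524 CPM in young pools, and its call (adjusted p = 0.0417) ended in each of the 8 fits that left out 1 pool. The ligand Bmp4 did not pass, at 132 to 227 CPM in old pools and 110.3 to 149.7 CPM in young pools (0.34, adjusted p = 0.522). None of 17 WNT pathway genes passed.

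Immediate-early genes, which cells switch on within minutes of a stimulus, tissue dissociation included, were partly higher: 8 of 25 tested passed and 0 were lower. All 25 had a positive log2 fold change, with a median of 0.83. Junb, an AP-1 subunit, was at 1840.1, 2691, 1969 and 1727 CPM in the old pools, against 1158, 1015, 734 and 800.2 CPM in the young pools, with a log2 fold change of 1.15 (SE 0.20, adjusted p = 0.00496). Jun was at 4794, 7356, 3834 and 3558 CPM in the old pools, against 2623, 2412, 2349.5 and 2109.7 CPM in the young pools, and its log2 fold change of 1.04 (SE 0.21, adjusted p = 0.0165) was lost without old pool 2 or young pool 2 (highest adjusted p 0.0653). Zfp36, which degrades cytokine mRNAs, was at 659, 1174, 655 and 579 CPM in the old pools, against 439, 299, 282 and 239 CPM in the young pools, with a log2 fold change of 1.29 (SE 0.24, adjusted p = 0.00781). Old pool 2 was the highest old pool for each of these, as it was for Il6, Cxcl9, Cxcl10 and Cxcl1 but not for Cxcl13. The part of the immediate-early genes in the Il6 and chemokine results was not tested. Btg2, an antiproliferative gene, was at 668 to 1189 CPM in old pools and 315 to 439 CPM in young pools (1.09, adjusted p = 0.00693), while Fos, Fosb, Ier3 and Socs3 had log2 fold changes of 0.92 (adjusted p = 0.0360), 1.40 (adjusted p = 0.0249), 1.01 (adjusted p = 0.0248) and 1.05 (adjusted p = 0.0114). The calls of the last 4 ended without one or another of old pools 1, 2, 3 or 4 or young pools 1, 2, 3 or 4 (highest adjusted p 0.166). The stress genes Gadd45b (138 to 287 CPM in old pools and 60.2 to 78.6 CPM in young pools), Dnajb1 (372 to 1105 CPM in old pools and 199 to 297 CPM in young pools), a partner of heat shock protein 70, and Pmaip1 (56.6 to 149 CPM in old pools and 16.6 to 36.4 CPM in young pools), the apoptosis gene also called Noxa, had log2 fold changes of 1.37 (adjusted p = 0.00452), 1.42 (adjusted p = 0.0107) and 1.86 (adjusted p = 0.00331). Of 29 heat shock and unfolded protein genes, 2 passed (Hspb1 and Dnajb1), with a list median of 0.12. Hspb1 had a log2 fold change of 1.05 (adjusted p = 0.0265), lost without old pools 1 or 2 or young pools 1, 2 or 3 (highest adjusted p 0.104). Gpx3, a secreted peroxidase and the only call among 27 oxidative stress genes, lay at 1676 to 3108 CPM in old pools and 969.6 to 1345 CPM in young pools (0.95, adjusted p = 0.0209) and lost its call without old pools 3 or 4 or young pool 4 (highest adjusted p 0.0785).

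Programmes often set beside ageing and involution showed few calls, as did all genes tested (1.38% higher and 0.539% lower). A list of these sizes without a call is near that share. The senescence and imprinted growth lists, with 2 calls each, lay above it. None of 33 proliferation genes passed, with a median log2 fold change of -0.23, and none of 24 adipogenic and lipid-handling genes, with a median of 0.06. Among 16 senescence and cell cycle inhibitor genes, Cdkn2c and Gadd45b were higher. Cdkn2c, the inhibitor p18, lay at 49.0 to 96.5 CPM in old pools and 22.5 to 46.9 CPM in young pools (1.05, adjusted p = 0.0377) and lost its call without old pools 1, 2 or 3 or young pools 1, 2 or 3 (highest adjusted p 0.136), and Cdkn1a (p21) did not pass (0.37, adjusted p = 0.512). No gene passed among 18 of cholesterol synthesis, 17 of the circadian clock, 35 of nuclear oxidative phosphorylation and 13 of DNA methylation. Of 16 IGF pathway genes 1 was lower, and of 14 imprinted growth genes 2 were, H19 as described above and Igf2r, which is on both lists. Igf2r, the receptor that clears IGF2, was lower (-0.93, adjusted p = 0.0323), a call lost without old pools 1, 2, 3 or 4 (highest adjusted p 0.120). Among 33 developmental transcription factors Foxf2 passed, from a low level (4.08 to 7.72 CPM in old pools and 0 to 2.21 CPM in young pools), and lost its call without old pool 3 or young pools 1, 2 or 3 (highest adjusted p 0.125). A gene that missed the threshold is not shown to be unchanged, since the calls above respond to single pools.

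**Figure D4:**
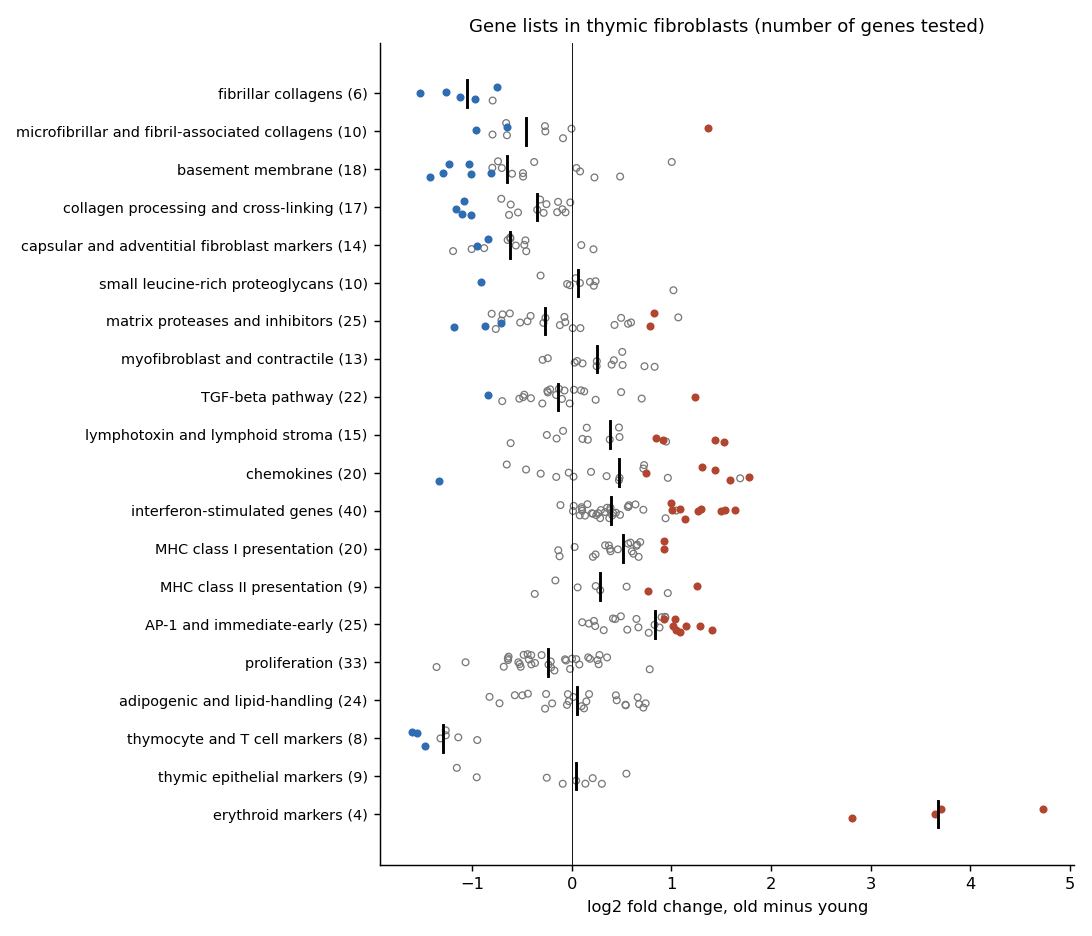
Log2 fold change, old minus young, of each tested member of 20 gene lists in thymic fibroblasts, with the number tested in brackets. Filled red and blue points passed as higher and lower in old, open points did not pass, and the black bar is the list's median. The medians of the 3 collagen and basement membrane lists and of collagen processing lie left of 0, and those of the interferon, chemokine, presentation and immediate-early lists lie right of it.

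RNA of lymphocytes changed with age in the same libraries. Of 13 thymocyte and T cell markers 8 were tested, all had a negative log2 fold change, with a median of -1.29, and Cd3d, Cd3g and Dntt passed. The 3 T cell receptor constant genes tested, named after their values were seen, were lower too. Trac among them was at 2.37, 2.55, 3.31 and 2.55 CPM in the old pools, against 24.0, 4.98, 17.6 and 17.3 CPM in the young pools, with a log2 fold change of -2.57 (SE 0.45, adjusted p = 0.00563). All 214 T cell receptor genes of the table, tested or not, summed to 48.7, 49.4, 32.0 and 27.6 CPM in the old pools, against 167, 84.0, 73.8 and 144 CPM in the young pools. Lat, an adaptor of T cell receptor signalling, fell too, with a log2 fold change of -2.31 (adjusted p = 0.00450). Itm2a, described above, is also a thymocyte gene, and Rac2, Ptprc and Laptm5 are leukocyte genes (-1.77, -1.37 and -1.22 on the log2 scale). Itm2a had log2 age changes of -1.10 in lymph node fibroblasts and -1.03 in muscle fibroblasts. In the joint fits described below, its age change in thymic fibroblasts was not called as different from these (adjusted p = 0.777 and 0.731). The part of T cell RNA in its fall was not tested. The calls of Cd3d, Cd3g, Dntt, Rac2, Ptprc and Laptm5 ended without one or another of old pools 1, 2, 3 or 4 or young pools 1, 2 or 4 (highest adjusted p 0.112).

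Globin RNA and some immunoglobulin RNA were higher. The 4 globin genes, all 4 past the threshold, summed to 217, 90.3, 357 and 277 CPM in the old pools, against 9.81, 5.37, 40.8 and 25.7 CPM in the young pools. Globin copies are nearly identical, so their split is uncertain. Igkc, the kappa light chain constant gene, was at 1029, 1757, 2214 and 1039.8 CPM in the old pools, against 45.7, 215, 49.9 and 190.0 CPM in the young pools, with a log2 fold change of 3.58 (SE 0.45, adjusted p = 0.000604). Across 14 immunoglobulin genes tested, 5 were higher and 0 lower, and the family summed to 1707, 2574, 3438 and 1635 CPM in the old pools, against 379, 419, 207 and 408 CPM in the young pools. Jchain, the joining chain of plasma cells, was at 90.6, 62.4, 152 and 65.8 CPM in the old pools, against 15.2, 26.1, 12.6 and 18.6 CPM in the young pools, with a log2 fold change of 2.32 (SE 0.30, adjusted p = 0.000729). Plasma cell markers as a list summed to 497 to 708 CPM in old pools and 355 to 461 CPM in young pools, and B cell markers to 13.3 to 19.3 CPM in old pools and 17.3 to 27.4 CPM in young pools. The part of these transcripts in the interferon, chemokine and collagen results was not tested. Kcnip1, a potassium channel partner, and Igsf9b, an adhesion protein, completed the genes named for the largest rises. Kcnip1 lay at 12.8 to 25.9 CPM in old pools and 2.68 to 8.41 CPM in young pools (2.09, adjusted p = 0.00563) and held without any one pool, while Igsf9b lay at 14.3 to 33.7 CPM in old pools and 2.21 to 8.46 CPM in young pools (1.84, adjusted p = 0.0150) and lost its call without old pool 4 (highest adjusted p 0.0582).

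A set of predicted gene models of near-identical sequence was higher, a list made with its values known. Gm10800, Gm10801, Gm21738, Gm10715 to Gm10722, Gm11168 and Gm17535, 11 of which were tested and 11 higher, summed to 13175, 19335, 14275 and 13432 CPM in the old pools, against 1384, 6506, 523 and 5028 CPM in the young pools. Young pools 1 and 3 were far below young pools 2 and 4, and all young pools were below the old ones. Gm10800 alone was at 7577, 10551, 7814 and 7228 CPM in the old pools, against 790.1, 3499.6, 265 and 2669.9 CPM in the young pools, with a log2 fold change of 2.20 (SE 0.51, adjusted p = 0.0338). Its call, like those of Gm10801 and Gm21738, ended without one or another of old pools 1, 2, 3 or 4 or young pool 1 (highest adjusted p 0.129). Reads may map to several of these models, so the values of single models are uncertain. Of the 10 genes with the highest counts (Malat1, Dcn, Gsn, CT010467.1, B2m, Sparcl1, Ctsl, C3, Col1a2 and Gm10800), Gm10800 alone passed.

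Whether the age change was particular to thymic fibroblasts was tested against the epithelial cells of the same organ. The log2 age change of the fibroblasts minus that of thymic epithelial cells was past the threshold for 270 genes in the positive direction (1.83% of 14781 tested) and 409 in the negative direction (2.77%). Group means in this and the next comparisons are CPM on the scale of the joint fit, and all of them use the same 8 fibroblast libraries. Of 7 fibrillar collagens tested 5 were on the negative side. Col3a1 was at 2299 ± 495 CPM in old and 5596 ± 2089 CPM in young thymic fibroblasts, against 330.0 ± 50.6 CPM in old and 193 ± 17.2 CPM in young thymic epithelial cells (SD, n = 4 and n = 5 each), a difference of age changes of -2.05 (SE 0.27, adjusted p = 4.04e-05). Col1a1 and Col5a2 differed by -2.33 (SE 0.42, adjusted p = 0.00111) and -1.35 (SE 0.18, adjusted p = 4.04e-05). In these epithelial sorts the collagen genes had log2 age changes of 0.77, 0.79 and 0.22. Of 10 listed fibroblast markers 6 were higher in the old epithelial sorts and 0 were lower, and their summed level was 4672 to 7291 CPM in the old and 3406 to 4208 CPM in the young epithelial sorts. Some other genes of fibroblasts, chosen after their values were seen, moved with them, and some did not. Prrx1, a mesenchymal transcription factor, was at 166 CPM in old and 25.0 CPM in young epithelial sorts, a log2 age change of 2.71. Postn, Pcolce and Dpt, matrix genes, had log2 age changes of 1.24, 1.24 and 1.02 there. Prelp, Sparc and Fstl1 went the other way, at -0.69, -0.46 and -0.45, while Cd34 and Pi16 were at 0.05 and 0.03. The 14 capsular and adventitial markers, Dpt among them, had a median log2 age change of 0.12 in the epithelial sorts. The part of these fibroblast transcripts in the collagen and Fgf7 differences was not tested.

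The interferon-inducible genes were on the positive side of that comparison, 9 of 43 tested and 0 on the negative side. Iigp1 was at 859.9 ± 100.1 CPM in old and 279 ± 64.3 CPM in young thymic fibroblasts, against 883 ± 189 CPM in old and 781 ± 106 CPM in young thymic epithelial cells, a difference of 1.45 (SE 0.25, adjusted p = 0.000695). Igtp and Irgm1 differed by 1.21 (SE 0.27, adjusted p = 0.00729) and 1.02 (SE 0.24, adjusted p = 0.0132). Il7 and Vcam1 differed as well, by 1.69 (SE 0.22, adjusted p = 4.39e-05) and 1.21 (SE 0.20, adjusted p = 0.000536). In epithelium the log2 age change was -0.61 for Il7 and -0.38 for Vcam1. Grem1 differed by 3.20 (SE 0.69, adjusted p = 0.00556), with epithelial means under 3 CPM at both ages. Ret and Edn1 differed by -2.65 (SE 0.68, adjusted p = 0.0226) and -1.51 (SE 0.38, adjusted p = 0.0192). Ret lost this call without fibroblast old pool 1 or epithelial old pool 5, and Edn1 without fibroblast old pool 2 or young pool 1. Differences were not called for Cxcl9 (-0.28 (SE 0.44, adjusted p = 0.824)), C4b (-0.26 (SE 0.28, adjusted p = 0.722)) or Ccl25 (0.69 (SE 0.30, adjusted p = 0.217)), whose log2 age changes in epithelium were 2.04, 2.16 and -2.05. By the rule for named genes the most positive differences included those of Hba-a2, Dlgap1, Hba-a1 and Grem1. The most negative were those of Otog, Cldn3, Ctxn3, Ush1c and Fgf7. Dlgap1 lost its call without fibroblast old pools 2 or 4 or young pools 1 or 3, and Ctxn3 without fibroblast old pool 1 or young pools 1, 2 or 4. Fgf7 was at 61.4 ± 16.8 CPM in old and 61.0 ± 19.3 CPM in young thymic fibroblasts, against 98.6 ± 18.8 CPM in old and 5.00 ± 2.07 CPM in young thymic epithelial cells.

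Against lymph node fibroblasts few genes differed, 16 in the positive direction (0.109% of 14658 tested) and 8 in the negative direction (0.0546%). Those counts depended on the pools. Without thymic old pools 1, 2 or 3 they were 6 and 2, 9 and 4, or 7 and 3, and without thymic young pools 2, 3 or 4 they were 4 and 2, 8 and 6, or 17 and 14. Without lymph node old pools 1 or 2 they were 5 and 2 or 4 and 3, and without lymph node young pools 1, 2 or 3 they were 9 and 10, 13 and 4, or 5 and 1. Col8a1 stood out with 40.4 ± 3.83 CPM in old and 15.6 ± 2.07 CPM in young thymic fibroblasts, against 885 ± 294 CPM in old and 3801 ± 761 CPM in young lymph node fibroblasts (SD, n = 4 and n = 3 each). The difference of 3.46 (SE 0.33, adjusted p = 1.49e-05) held without any one library. Slpi differed by 4.09 (SE 0.65, adjusted p = 0.0102) and Masp1, a protease of the lectin complement pathway, by -2.02 (SE 0.28, adjusted p = 0.00502), both also without any one library. Col11a1 did likewise at 4.17 (SE 0.65, adjusted p = 0.00971), from under 2 CPM in thymic fibroblasts of either age. Col18a1 differed by -2.33 (SE 0.38, adjusted p = 0.0132), and Scara5, a ferritin receptor of fibroblasts, by -1.69 (SE 0.29, adjusted p = 0.0187). Col18a1 lost the call without lymph node old pool 1 or young pool 3. Scara5 lost it without thymic old pool 1, thymic young pool 2, lymph node old pool 2 or lymph node young pool 3. Cxcl9 passed in 3 of 14 fits that left out 1 library (2.09 (SE 0.42, adjusted p = 0.0485) in the full fit). Sox6, Mkx, Wfdc17, Slit2, Col4a1 and Btg2 passed in 5, 2, 3, 4, 2 and 1 of these 14 fits. Ccn2 differed by 2.31 (SE 0.36, adjusted p = 0.00971) and held in all 14. Col8a1, Col11a1, Col18a1 and Col4a1 had age changes of opposite sign in lymph node fibroblasts, with log2 age changes there of -2.10, -1.61, 0.90 and 0.41. In lymph node fibroblasts those of Col8a1 and Col11a1 passed (adjusted p = 0.000117 and 0.00118). Those of Col18a1 and Col4a1 did not (adjusted p = 0.330 and 0.728). Col3a1 and Sparc, lower with age in thymic fibroblasts, had log2 age changes of -1.22 and -1.48 in lymph node fibroblasts, and the differences were -0.05 (SE 0.56, adjusted p = 0.997) and 0.19 (SE 0.31, adjusted p = 0.938). In this joint fit the age change of Col3a1 passed neither in thymic fibroblasts (adjusted p = 0.0975) nor in lymph node fibroblasts (adjusted p = 0.436).

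For the interferon-inducible genes no difference from lymph node fibroblasts was called, 0 of 42 tested in either direction. Their median log2 age change was 0.40 in thymic fibroblasts and 0.61 in lymph node fibroblasts. Iigp1, Gbp2 and Igtp had log2 age changes of 1.53, 0.92 and 0.66 in lymph node fibroblasts, and the differences were 0.11 (SE 0.34, adjusted p = 0.971), 0.22 (SE 0.28, adjusted p = 0.905) and 0.87 (SE 0.28, adjusted p = 0.251). Their positive age change is thus not shown to be particular to the thymic cells.

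Against muscle fibroblasts 16 genes differed in the positive direction (0.114% of 14074 tested) and 6 in the negative direction (0.0426%). Without any one library other than thymic young pool 2 or muscle old pool 1, the first count was 4 to 10, the lowest of these without muscle old pool 2. The second was 1 without muscle young pools 2 or 3, 2 without thymic old pools 1 or 3, and 3 without thymic old pool 2, thymic young pools 1 or 4 or muscle old pool 3. Iigp1 was at 737 ± 83.8 CPM in old and 239 ± 56.0 CPM in young thymic fibroblasts, against 122 ± 5.26 CPM in old and 162 ± 27.8 CPM in young muscle fibroblasts (SD, n = 4 and n = 3 each), and its difference of 2.03 (SE 0.32, adjusted p = 0.0125) held without any one library. Igtp and Gbp2 differed by 1.52 (SE 0.30, adjusted p = 0.0437) and 1.76 (SE 0.37, adjusted p = 0.0480), and each kept the call in 1 of 14 fits that left out 1 library. None of these 3 GTPase genes was called as different from lymph node fibroblasts. Aspn, lower with age in thymic fibroblasts, was at 119.8 ± 8.74 CPM in old and 228 ± 17.6 CPM in young thymic fibroblasts, against 1375 ± 735 CPM in old and 554 ± 78.4 CPM in young muscle fibroblasts. Its difference of -2.24 (SE 0.37, adjusted p = 0.0134) held without any one library, as did that of Cyp2f2, a monooxygenase, at 3.09 (SE 0.45, adjusted p = 0.00781). The remaining genes named by the rule, Hba-a2, Art4, Abcc9, Ddit4l, Arhgef4, Laptm5, Adamts8 and Thbs4, lost the call without at least 1 library. In muscle the log2 age changes were -2.07 for Col3a1 and -2.18 for Col1a1, and the differences from thymic fibroblasts were 0.79 (SE 0.55, adjusted p = 0.733) and 0.64 (SE 0.62, adjusted p = 0.808). A difference that missed the threshold does not show that the age changes were equal.

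**Figure D5:**
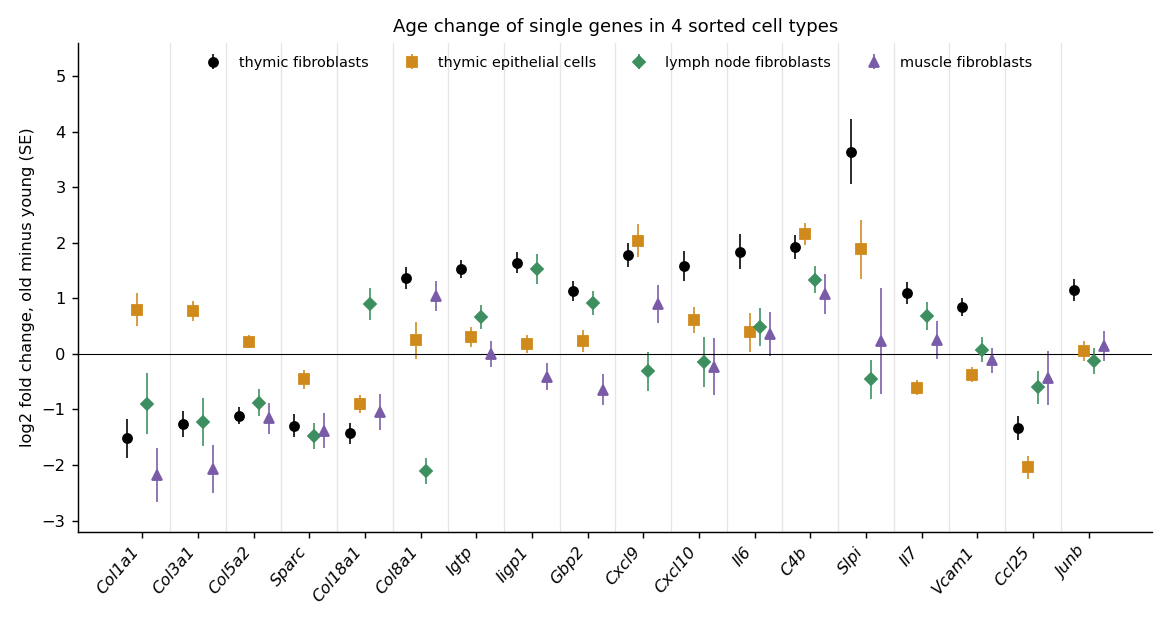
Log2 fold change, old minus young, with its SE for 18 genes in thymic fibroblasts (black), thymic epithelial cells (orange), lymph node fibroblasts (green) and muscle fibroblasts (purple). For Col1a1 and Col3a1 the 3 kinds of fibroblast lie below 0 and the epithelial cells above it, and for Col8a1 the lymph node fibroblasts alone lie below 0.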

How the data were processed

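Poly-A RNA of sorted cell pools was counted with a library biased to 3′ ends. Per the labels' protocols, each cDNA carried an index of 8 bp and a molecular identifier of 10 bp, and sabre (version 80faf94) separated the samples. Per the submitters' processing notes, the tools were STAR and featureCounts 2.0.1, and mm10 and GRCm38.p6 are named as builds. Whether identifiers were collapsed and whether strand was used were not given in the sources used here. As deposited by the authors, the values are raw counts per gene in 1 table of 55484 genes, and totals of the 8 thymic fibroblast libraries ran from 1392053 to 4751247, which limits what can be said of genes with few counts.

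Old and young libraries were compared with edgeR 4.0.16 (R 4.3.3): filterByExpr (minimum count 10, minimum total 15), TMM, and the quasi-likelihood test with Benjamini-Hochberg adjustment over all 12239 genes kept. Differences of age changes were interaction terms in joint fits with each other cell type, each on its own set of genes. CPM are counts per 1000000 of TMM-scaled library size. The scripts were tested on simulated data. Alternatives were RLE size factors, no filter, DESeq2 1.42.0, a replicate block and each library left out in turn. The members and the gene lists were chosen with earlier results of these data known. Genes were named where they were the 12 largest called changes in a direction with groups apart and at least 20 CPM in a group, where they were called members of a list with up to 4 uncalled members, where they were the 5 largest called differences in a direction, or where they were among the 10 highest counts. Genes said to be named after their values were seen fall outside this rule. Promoter sequences are RefSeq's on GRCm38.p6, with entries for 8896 of the 12239 genes tested. Some results named by this rule are not reported here.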

Additional observations from a re-analysis of the deposited data

Results flagged for a closer look

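The check covered 3 sex-linked genes and those genes called in thymic fibroblasts that the naming rule gave, that were named after their values were seen or that were listed as cell markers. Of 312 groups of 4 pools, 13 held a single pool far from the other 3. Chance flags about 1 in 20 such groups. Young pool 1 held 40.3 CPM of Ddx3y and 34.5 CPM of Eif2s3y, both Y-linked, while the other young pools had at most 0.443 and 1.15 CPM. Eif2s3y was 1.53 CPM in old pool 4, against at most 0.568 CPM in the other old pools. Young pool 1 also differed from the other young pools in Fbln7 (56.5 CPM, the others up to 27.5), Iigp1 (168 CPM, the others at least 277), Btg2 (315 CPM, the others at least 435) and Rgs16 (18.3 CPM, the others at least 44.3). Rgs16, a regulator of G protein signalling, and Tmem108 were named after their values were seen. Old pool 2 was far above the other old pools in Irf1 (301 CPM, the others up to 199), Gadd45b (287 CPM, the others up to 147) and Zfp36 (1174 CPM, the others up to 659). Itm2a in old pool 1 (86.9 CPM, the others up to 62.9), Tmem108 in old pool 3 (3.31 CPM, the others up to 2.59) and H19 in young pool 2 (47.9 CPM, the others up to 21.7) were the remaining ones.

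The age change in thymic fibroblasts differed from that in other cell types for the genes named by rule and for some others named after their values were seen, by the interaction term of the joint fit. The values that follow are log2 age change in thymic fibroblasts minus that in the other cells, and all 3 comparisons use the same fibroblast libraries. Against thymic epithelial cells it was 4.50 for Hba-a2, 3.78 for Dlgap1, 3.44 for Hba-a1, 3.20 for Grem1, 3.06 for Hbb-bs and 2.59 for Igsf9b. On the same side were Il7 at 1.69, Iigp1 at 1.45, Igtp at 1.21, Vcam1 at 1.21 and Irgm1 at 1.02. Without fibroblast old pool 3 or young pools 1 or 2 the difference for Hbb-bs was not called. On the negative side were Otog at -5.25, Cldn3 at -4.73, Ctxn3 at -4.33, Ush1c at -4.26 and Fgf7 at -4.13. In epithelial cells these 5 genes were higher with age. Further negative differences were those of Ret at -2.65, Col1a1 at -2.33, Pi15 at -2.19, Col3a1 at -2.05, Tenm4 at -2.05, Itm2a at -1.55, Edn1 at -1.51 and Col5a2 at -1.35.

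Against lymph node fibroblasts the difference was 4.17 for Col11a1, 4.09 for Slpi, 3.46 for Col8a1, 2.74 for Sox6, 2.54 for Mkx, 2.31 for Ccn2, 2.09 for Cxcl9 and 1.39 for Btg2. It was -2.67 for Wfdc17, -2.33 for Col18a1, -2.02 for Masp1, -1.69 for Scara5, -1.68 for Slit2 and -1.22 for Col4a1. Against muscle fibroblasts it was 4.46 for Hba-a2, 3.48 for Art4, 3.09 for Cyp2f2, 2.94 for Abcc9, 2.74 for Ddit4l, 2.03 for Iigp1, 1.76 for Gbp2 and 1.52 for Igtp. It was -5.24 for Arhgef4, -4.41 for Laptm5, -3.96 for Adamts8, -2.85 for Thbs4 and -2.24 for Aspn.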

How the results depend on the processing

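No value of a named gene that passed the threshold in the main or the alternative fit changed sign between them. Sign changes of values that passed in neither fit were not counted. For old against young thymic fibroblasts, 169 higher and 66 lower genes became 307 and 201 with no filter on low counts, 236 and 140 with DESeq2, and 106 and 37 with the replicate number as a block (replicate block). RLE size factors gave 167 and 66. Leaving out 1 library gave 92 to 167 higher and 32 to 74 lower genes. Of the higher genes 159 were also called by DESeq2 and 104 under the block, and of the lower genes 64 and 37. No general pairing by replicate number was seen. The deviations of same-numbered old and young pools correlated at 0.172, -0.00658, -0.260 and -0.139, and not every pool correlated best with its own number. Old pool 1 and young pool 1 did correlate best with each other. So few correlations cannot show that the pools were unpaired, so the counts under the block are given beside the others. Against thymic epithelial cells the 270 and 409 genes stayed within 1.5 times in all alternatives (201 to 285 and 292 to 439 with 1 library left out, 185 and 292 with the replicate block). Against lymph node fibroblasts the 16 higher genes were 9 with RLE size factors, 175 with no filter, 90 with DESeq2 and 4 to 22 without 1 library. The 8 lower genes were 91 with no filter, 69 with DESeq2, 2 with the replicate block and 1 to 14 without 1 library. Against muscle fibroblasts the 16 higher genes were 94 with no filter, 50 with DESeq2 and 4 to 14 without 1 library. The 6 lower genes were 44 with no filter, 23 with DESeq2, 2 with the replicate block and 1 to 7 without 1 library. Of the values of single named genes past the threshold, 10 of 220 were no longer past it with DESeq2, 6 with RLE size factors, 3 with no filter, 74 with the replicate block and 598 of 2170 with 1 library left out. The causes were not tested. With 4 pools a group and a shallowest library of 1392053 counts, genes of a few CPM rest on few reads, and counts cover no error of amplification.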

Other observations

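Defa24, an antimicrobial peptide gene known from intestinal Paneth cells, was named after its values were seen. It was at 224, 3.41, 3.31 and 1.53 CPM in the old pools of thymic fibroblasts, against 6.77, 3.07, 864 and 732 CPM in the young pools. High counts thus stood in 1 old and 2 young pools, and the gene did not pass the test of age. Alpha-defensin genes are close copies of each other, so the assignment of these reads to Defa24 is uncertain.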
